A study of Mus musculus with 6 samples.

Results

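Amyotrophic lateral sclerosis (ALS) is an adult-onset disease of motor neurons (MNs), and mutations in a set of functionally diverse genes cause familial forms of it. The expression of 7 mouse orthologs of such genes, Sod1, Tardbp, Vcp, Optn, Ubqln2, Matr3 and Chmp2b, was examined in MNs from a mouse embryonic stem cell (mESC) model of spinal muscular atrophy (SMA), a childhood MN disease caused by loss of SMN. The genes were matched by symbol, taking the entry with the highest FPKM where a symbol has several, and each of the 7 had 1 entry. All 7 were found among 14926 gene entries that carry a symbol, reach at least 1 FPKM (fragments scaled to exon length and to the number of mapped fragments) in either genotype and exceed 0 FPKM in both. The whole table holds 41945 entries.

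The control group comprised 3 samples of MNs from the Hb9 mESC line, labelled wildtype, and the SMA group comprised 3 samples from the A2 line, labelled SMN2+/+;mSmn-/-. Both lines are on the FVB/N background. According to the study's methods, both carry the human SMN2 transgene and an eGFP reporter driven by the promoter of Hb9 (Mnx1), so that the controls are SMN2+/+;mSmn+/+. Embryoid bodies received 1 µM retinoic acid and 1 µM Smoothened agonist for 5 days, and living eGFP-positive cells were then sorted. Each genotype is a single cell line, so genotype and line cannot be told apart. The authors' table gives 1 FPKM value per gene and genotype, made from the 3 samples. No value of a single sample, SD or test is therefore given, and none of the differences below has a replicate check. The FPKM values carry no read counts, so the number of reads behind each of them could not be given.

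The proteins fall into a few systems that MNs depend on. Sod1 removes superoxide in the cytosol. Tardbp encodes TDP-43, and Matr3 encodes matrin-3, both nuclear proteins that bind RNA and act in splicing. Vcp is an ATPase that pulls ubiquitinated proteins out of membranes and complexes, Ubqln2 carries such proteins to the proteasome, Optn is a receptor that links ubiquitinated cargo to autophagosomes, and Chmp2b is a subunit of ESCRT-III, the complex that cuts membrane necks at endosomes. Cytoplasmic aggregates of TDP-43 are a hallmark of most ALS cases.

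The labelled cell type and genotype were compared with marker genes. Pairs of values are given with the control first. Smn1, the gene deleted in the SMA line, was at 137 and 5.26 FPKM. All 11 pan-neuronal markers past the filter were at least 2-fold lower in A2 SMA MNs, their summed level being 1717 and 160 FPKM. Over the 8 of 9 listed MN markers that have an entry, the summed level was 242 and 63.9 FPKM. Of the 7 MN markers past the filter, 6 were at least 2-fold lower (5 relative to the median gene). Mnx1 was the exception at 41.2 and 44.2 FPKM, while Isl1 was at 108 and 5.95 FPKM and Lhx3 at 27.6 and 0.348 FPKM. Chat, the enzyme that makes acetylcholine, was at 15.5 and 0.344 FPKM and is named after its value was seen. Across all genes, 22.4% were at least 2-fold lower and 6.83% at least 2-fold higher. All 9 pluripotency markers were at least 2-fold higher (279 and 1839 FPKM summed). Of 7 neural progenitor markers 6 were at least 2-fold lower (1037 and 66.7 FPKM summed, of which Fabp7 gave 553 and 5.52 FPKM), the exception being Pax6 at 22.4 and 21.4 FPKM. Of 7 fibroblast markers 5 were at least 2-fold lower (2 relative to the median gene, 3 with a pseudocount of 1 FPKM) and 1, Thy1, was higher, at 0.970 and 2.20 FPKM, though not with that pseudocount (63.6 and 32.4 FPKM summed). Of 5 endoderm markers past the filter 2 were at least 2-fold lower (1 relative to the median gene or with that pseudocount), and Foxa2 gave 55.9 and 18.2 of the 90.2 and 41.1 FPKM summed over the list. Pax6 and Thy1 are named after their values were seen. The part of cell makeup in the ratios of the members was not tested, and in bulk samples fewer cells of a type and less RNA per cell cannot be told apart.

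The differences of the 7 members were small beside those of many other genes. Across the 14926 genes, 22.4% were at least 2-fold lower in A2 SMA MNs and 6.83% were at least 2-fold higher, and the median log2 ratio of A2 SMA over Hb9 control MNs was -0.29 (quartiles -0.89 and 0.19), with 65.9% of genes lower. Relative to the median gene, 16.5% were at least 2-fold lower and 10.4% at least 2-fold higher. None of the 7 members was 2-fold different in either direction. With 1.5-fold as the limit, 35.4% of all genes were lower, 12.7% were higher, and Ubqln2 was the 1 member past it. The median log2 ratio of the members was -0.25, which is 0.04 above that of all genes. In 6 of the 7 the value was below the control, but of these Tardbp, Vcp, Matr3 and Chmp2b lay above the median gene, and only Ubqln2 and Optn lay below it.

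**Figure D1:**
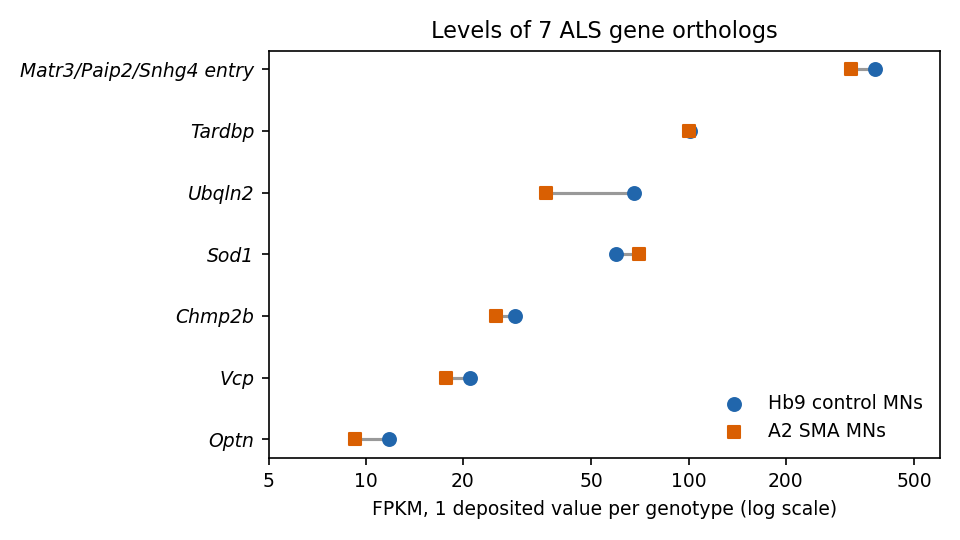
FPKM of each member (log axis) in Hb9 control MNs (blue circles) and A2 SMA MNs (orange squares), 1 deposited value per genotype and no error bars because no sample values were used. The symbols nearly coincide for Tardbp at 101 and 100.3 FPKM and are farthest apart for Ubqln2 at 67.8 and 36.1 FPKM.

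Ubqln2, the ubiquilin that delivers ubiquitinated clients to the proteasome, showed the largest difference of the 7. It lies on chromosome X from 149932775 to 149936080 (NCBI m37) with a listed level of 67.8 FPKM in the control and 36.1 FPKM in the SMA line. The log2 ratio was -0.91, a level 1.88-fold lower in A2 SMA MNs, and -0.62 relative to the median gene. This ratio was above that of 24.6% of genes, and 16 genes had log2 levels within 0.1 of those of Ubqln2 in both genotypes. By own entries Ubqln2 was the third most abundant member in control MNs and the fourth, after Sod1, in SMA MNs. If the pseudogene entries described below are added, Sod1 (183 and 215 FPKM) and Vcp (109 and 104 FPKM) exceed Ubqln2 in both genotypes. The 662 genes of chromosome X had a median log2 ratio of -0.21, and 32.9% of them were at least 1.5-fold lower.

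Differences of the other ubiquilins were smaller or of the opposite sign. Ubqln1 was at 100.2 FPKM in the control and 99.7 FPKM in the SMA line, a log2 ratio of -0.01. Ubqln4 was at 67.6 and 97.2 FPKM (log2 ratio 0.52), in an entry that Cuffdiff, the authors' program, marked FAIL, meaning that its calculation failed there. In control MNs Ubqln2 and Ubqln4 thus had almost the same level, while in SMA MNs that of Ubqln2 was the lower of the pair. Ubqln1 aligned to Ubqln2 over 52.0% of the coding sequence with 75.3% identity, and no run of 50 bases of the Ubqln2 coding sequence, the sequenced read length, occurred in a transcript of another gene.

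Ubqln2 also differs from the other members in structure, being encoded by 1 exon, whereas they have between 5 and 17 (GENCODE M21). Among 270 single-exon genes the median log2 ratio was -0.73 and 40.0% were at least 2-fold lower in A2 SMA MNs. Among 11139 genes with more exons, these values were -0.29 and 22.2%. Exon numbers were available for 80.1% of the genes that are alone in their entry, and which genes make up the single-exon class was not examined.

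The other ubiquilins, shuttle factors and related quality control genes were taken as a list of 14 genes, of which 11 passed the filter. None was 2-fold different, against 22.4% (lower) and 6.83% (higher) of all genes, and 2 were at least 1.5-fold lower, against 35.4%. Above the control were 5 of them, where 34.1% of all genes were higher. The list median was -0.01, or 0.28 relative to the median gene. Zfand5 was the lowest at -0.79 (88.1 and 50.9 FPKM in control and SMA MNs), followed by Ubl4 at -0.63. At the other end, after Ubqln4, was the entry of Ddi2, a shuttle protein, and Rsc1a1 at 0.45. The most abundant were Bag6, a chaperone of the cytosolic quality control, at 329 and 258 FPKM, and the proteasome's ubiquitin receptor Psmd4 at 258 and 272 FPKM.

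Sod1 was the 1 member listed higher in A2 SMA MNs. The gene lies on chromosome 16 from 90220987 to 90226567 with a listed level of 59.6 FPKM in the control and 70.1 FPKM in the SMA line. The log2 ratio was 0.24 (1.18-fold higher), above that of 76.8% of genes, and 0.53 relative to the median gene. Sod2, its mitochondrial counterpart, had a nearly equal log2 ratio of 0.23, with 23.5 and 27.6 FPKM.

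Other genes for the handling of superoxide and peroxide were mixed. The list is not limited to enzymes that remove them, since it also holds Hmox1, Nqo1, Gclc, Gclm and the regulators Nfe2l2 and Keap1. Among the 23 past the filter, 14 were higher in A2 SMA MNs and 9 lower, where 34.1% and 65.9% of all genes were, 18 lay above the median gene, and the list median was 0.23. Only Hmox1 was at least 2-fold higher (82.9 and 198.8 FPKM, log2 ratio 1.26), against 6.83% of all genes, and only Prdx2 was at least 2-fold lower (112 and 53.1 FPKM, -1.08), against 22.4%. Relative to the median gene, 6 genes were 2-fold higher, against 10.4% of all genes, and none was 2-fold lower, against 16.5%. Hmox1 encodes heme oxygenase and Prdx2 a cytosolic peroxiredoxin. The log2 ratio was 0.93 for Prdx1 and -0.75 for the mitochondrial thioredoxin reductase Txnrd2. The abundant glutathione peroxidase Gpx1 was at 228 and 403 FPKM (0.82), and Prdx6 at 167 and 252 FPKM (0.59).

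Sod1, Tardbp and Vcp each have a near copy with an entry of its own in the table, a processed pseudogene, which is an intronless copy of an mRNA. These copies were looked for after an entry named Vcp-rs had been noticed. The coding sequence of Sod1 has 462 bases, and the pseudogene Gm8566 on chromosome 6 (67155505 to 67156161) differs from it at 10 of them. Of the 50-base words of the Sod1 coding sequence, 33.2% occur unchanged in Gm8566. The pseudogene was listed at a higher level than the gene, at 124 FPKM in the control and 145 FPKM in the SMA line, with a log2 ratio of 0.23. The summed level was 183 FPKM in control and 215 FPKM in SMA MNs, and the log2 ratio of the sum was also 0.23.

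Vcp and Vcp-rs are harder still to separate. Of 2403 aligned bases 8 differ, and 82.7% of the 50-base words of the Vcp coding sequence are also found in Vcp-rs. The first 120 coding bases are identical and are shown because no read of 50 bases within them could tell the genes apart. The sequence is from GENCODE M21 (GRCm38), 5′ to 3′ on the coding strand, with no capitals because no base differs.
Vcp and Vcp-rs: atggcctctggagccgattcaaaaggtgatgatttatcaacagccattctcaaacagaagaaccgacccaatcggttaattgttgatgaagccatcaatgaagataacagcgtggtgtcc
Vcp, on chromosome 4 from 42982818 to 43013379, was listed at 21.1 FPKM in the control and 17.7 FPKM in the SMA line, a log2 ratio of -0.25 that became 0.04 relative to the median gene. The Vcp-rs entry, whose locus on chromosome X runs from 101475996 to 101609195 and which has the status FAIL, was at 88.1 and 86.6 FPKM. Its log2 ratio was -0.02, and the level was 4.18 times that of Vcp in control MNs and 4.89 times in SMA MNs. Summed, the entries were at 109 and 104 FPKM with a log2 ratio of -0.07 (0.22 relative to the median gene). The level of Vcp taken from its own entry is therefore uncertain, and so is its rank among the members. In both genotypes the Vcp sum exceeded the entry of Ubqln2 and the own entries of Sod1 and Tardbp. It was below the sums of Sod1 (183 and 215 FPKM) and Tardbp (146 and 147 FPKM) with their pseudogenes.

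For Tardbp the copy was less similar and less abundant. Gm13886 on chromosome 2 aligned over 96.1% of the coding sequence with 93.9% identity and shared 7.54% of the 50-base words. It was at 44.3 and 46.5 FPKM, and the sums with Tardbp were 146 and 147 FPKM. For Matr3 the processed pseudogene Matr3-ps2 had 15.2 and 14.3 FPKM. Also similar, but without an entry, were Gm28285 for Matr3 and Gm8238 for Sod1. Gm28285, annotated as protein-coding, holds 59.3% of the 50-base words of Matr3. Gm8238 aligned over 98.9% of the Sod1 coding sequence with 87.7% identity. No copy with at least 85% identity over 30% of the coding sequence was found for Optn, Ubqln2 or Chmp2b. The number of reads that mapped to both a gene and its copy is unknown.

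**Figure D2:**
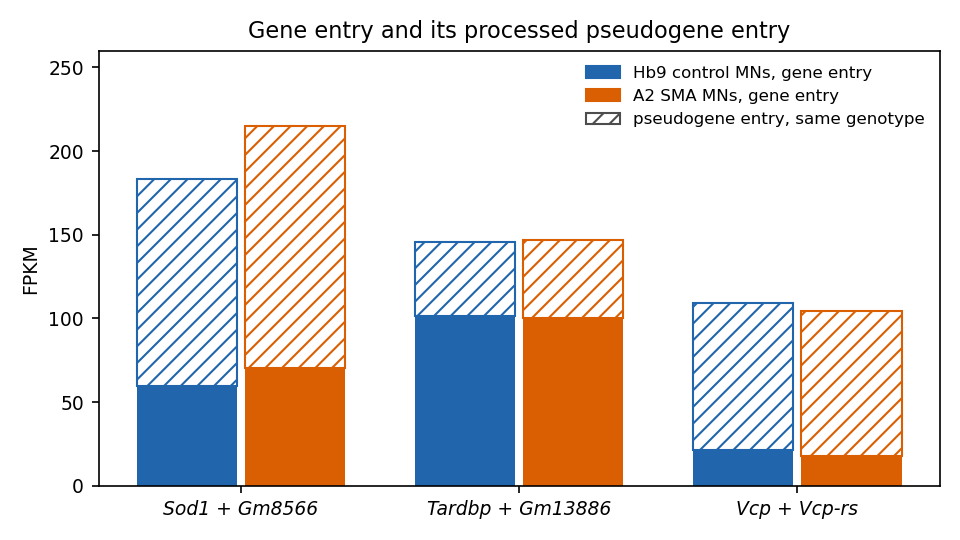
FPKM of the entries of Sod1, Tardbp and Vcp (filled) with the entry of the processed pseudogene stacked on top (hatched), for Hb9 control MNs (blue) and A2 SMA MNs (orange), 1 deposited value each. The pseudogene entry is the larger part for Sod1 and Vcp, and the stacked heights are 183 and 215, 146 and 147, and 109 and 104 FPKM.

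The log2 ratio of Tardbp, which encodes the RNA-binding protein TDP-43, was nearest to 0. It was at 101 FPKM in the control and 100.3 FPKM in the SMA line, a log2 ratio of -0.01 that became 0.28 relative to the median gene and was above that of 65.2% of genes. The gene lies on chromosome 4 within a locus from 147976663 to 148001192 that also covers Masp2, listed at 0.479 and 1.40 FPKM. In both genotypes Tardbp ranked second among the members by own entries, above 90.9% of all genes in control MNs and 92.4% in SMA MNs. With pseudogene entries summed, Tardbp at 146 and 147 FPKM was below Sod1 at 183 and 215 FPKM, so this rank is uncertain.

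Matr3 has no value of its own, because the entry joins it with Paip2, a translational regulator, and Snhg4, a noncoding RNA. The joint entry spans chromosome 18 from 35713064 to 35787192 and has the status FAIL, the 1 member entry so marked. It was at 379 FPKM in the control and 318 FPKM in the SMA line (log2 ratio -0.25, and 0.04 relative to the median gene). Above 99.3% of genes in control MNs, it had the highest level of the members in both genotypes, but how much of that belongs to Matr3 is unknown.

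Most of the related nuclear RNA-binding proteins also differed by less than 2-fold. Among 25 genes past the filter, for hnRNP, FET, paraspeckle and a few other RNA-binding proteins, none was 2-fold higher and 2 were 2-fold lower in A2 SMA MNs, against 6.83% and 22.4% of all genes. The list median was -0.07, or 0.22 relative to the median gene, with 16 genes above it. Hnrnpf, named after its value was seen, did not pass the filter because its most abundant entry was at 157 FPKM in the control and listed at 0 in the SMA line, and with the entries of each symbol summed 3 genes were 2-fold lower. The 2 lower ones past the filter were Ptbp2, the neuronal form of a splicing repressor, at 72.4 and 22.2 FPKM (-1.71), and Tia1, a stress granule protein, at 127 and 39.7 FPKM (-1.67). Ptbp1, the form found outside neurons, was at 186 and 256 FPKM and had the highest log2 ratio of the list, 0.46. Hnrnpd followed at 0.38 with 517 and 673 FPKM, and the abundant Hnrnph1 was at 763 and 546 FPKM (-0.48).

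**Figure D3:**
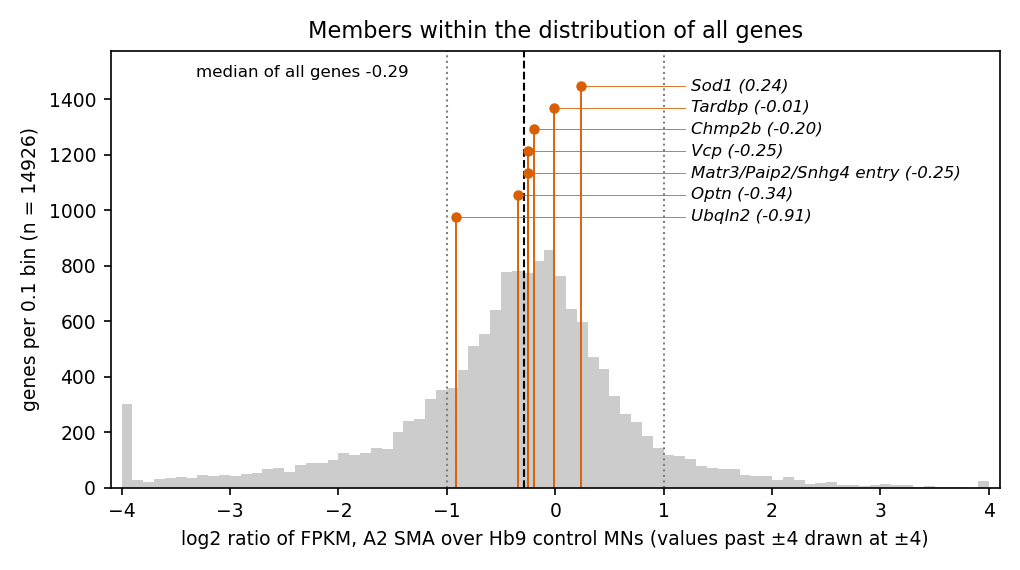
Histogram of log2 ratios of FPKM (A2 SMA over Hb9 control MNs) for 14926 genes in bins of 0.1, with the 7 members as orange lines, the median of all genes (-0.29) dashed and 2-fold limits dotted. Values past 4 in size are drawn at the ends, and 5 of the members lie between the quartiles of all genes, the exceptions being Sod1 just above the upper quartile and Ubqln2 just below the lower one.

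Vcp acts with adaptors that recognise its substrates, and these were described as a list of 25 genes. In A2 SMA MNs 17 of them were lower and 8 higher, where 65.9% of all genes were lower, while 14 lay above the median gene. The median log2 ratio was -0.20, or 0.09 relative to the median gene. At least 2-fold lower were 3 genes, against 22.4% of all genes, but none of them relative to the median gene, and none was 2-fold higher, against 6.83%. Sel1l, the scaffold of a ubiquitin ligase complex of the endoplasmic reticulum, was at 76.5 and 34.4 FPKM (log2 ratio -1.15, status FAIL). The deubiquitinase Yod1, named after its value was seen, was at 5.14 and 2.54 FPKM. Derl3 (0.87, or 1.16 relative to the median gene) and Ubxn2a (0.63, status FAIL) had the highest ratios. The most abundant, Ube4b and Ubxn1, both of status FAIL, had log2 ratios of -0.23 and 0.03.

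Optn, the autophagy receptor, had the lowest level of the 7 members. The locus on chromosome 2 runs from 4941550 to 4985097 and also covers 4930551O13Rik, listed at 0.160 and 0.0139 FPKM. Optn was at 11.8 FPKM in Hb9 control MNs, above 40.3% of genes, and at 9.27 FPKM in the SMA line. The log2 ratio of -0.34 (1.27-fold lower) was above that of 47.4% of genes, so that relative to the median gene it was -0.05.

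Among 17 other selective autophagy receptors, the Atg8 proteins they bind and binding partners of Optn, 12 were lower in A2 SMA MNs, where 65.9% of all genes were lower. Below the median gene were 9 of these, and the list median was -0.35. Gabarap, an Atg8 protein, was the 1 gene at least 2-fold lower, against 22.4% of all genes, at 330 and 120 FPKM (-1.46, status FAIL). Map1lc3a, of the same family, was at 96.5 and 48.7 FPKM (-0.99, status FAIL). The receptor Sqstm1, which encodes p62, was at 314 FPKM in both genotypes. Calcoco2, a receptor for bacteria and mitochondria, was at 11.9 and 23.2 FPKM (0.96, and past 2-fold relative to the median gene), and Tnip1 had a log2 ratio of 0.38.

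Chmp2b lies on chromosome 16 from 65539377 to 65562995, with a level of 29.1 FPKM in the control and 25.3 FPKM in the SMA line. The log2 ratio was -0.20 but 0.09 relative to the median gene, above that of 54.7% of genes. Chmp2a, its nearest ESCRT-III relative, was at 69.4 and 63.7 FPKM (log2 ratio -0.13).

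The rest of the ESCRT machinery was mostly lower in A2 SMA MNs, as were 65.9% of all genes. Of 28 entries, 26 were lower and 19 were below the median gene, and the median log2 ratio was -0.44, the lowest of the 7 lists of pathway and disease genes. Past 2-fold, where 22.4% of all genes were lower and 6.83% higher, were Vps37d (14.1 and 3.21 FPKM, -2.13) and Mvb12b, listed as Fam125b (38.5 and 15.5 FPKM, -1.31), both of ESCRT-I, and in the other direction Chmp4c (3.31 and 8.65 FPKM, 1.38). The most abundant was Vps25, in an entry shared with Ramp2 (status FAIL), at 203 and 146 FPKM. Chmp4b, an ESCRT-III filament subunit, followed at 136 and 133 FPKM. Vps4b, the ATPase that takes ESCRT-III apart, was at 44.1 and 46.5 FPKM in an entry shared with Kdsr.

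Among 32 other genes linked to ALS, differences were wider than among the 7. At least 2-fold lower in A2 SMA MNs were 5 of them, against 22.4% of all genes, and 3 were at least 2-fold higher, against 6.83%. The list median was -0.03, or 0.26 relative to the median gene. Relative to the median gene, 4 were 2-fold lower and 5 were 2-fold higher, against 16.5% and 10.4% of all genes. Erbb4, a neuregulin receptor, had the lowest log2 ratio (-4.07, with 0.121 FPKM in the SMA line), followed by Kif5a, a neuronal kinesin (43.7 and 7.37 FPKM, -2.57). The other three, named after their values were seen, were the synaptic gene Unc13a, Tia1 and Prph. Chchd10, a mitochondrial protein, had the highest ratio (71.3 and 273.8 FPKM, 1.94), then Anxa11 (14.6 and 49.6 FPKM, 1.77), while Tuba4a, the last of the 3 and also named after its value was seen, had 1.65. The most abundant, Pfn1 and Hnrnpa2b1 (the latter of status FAIL), had log2 ratios of 0.04 and -0.03. The difference in spread between these 32 genes and the members was not tested.

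**Figure D4:**
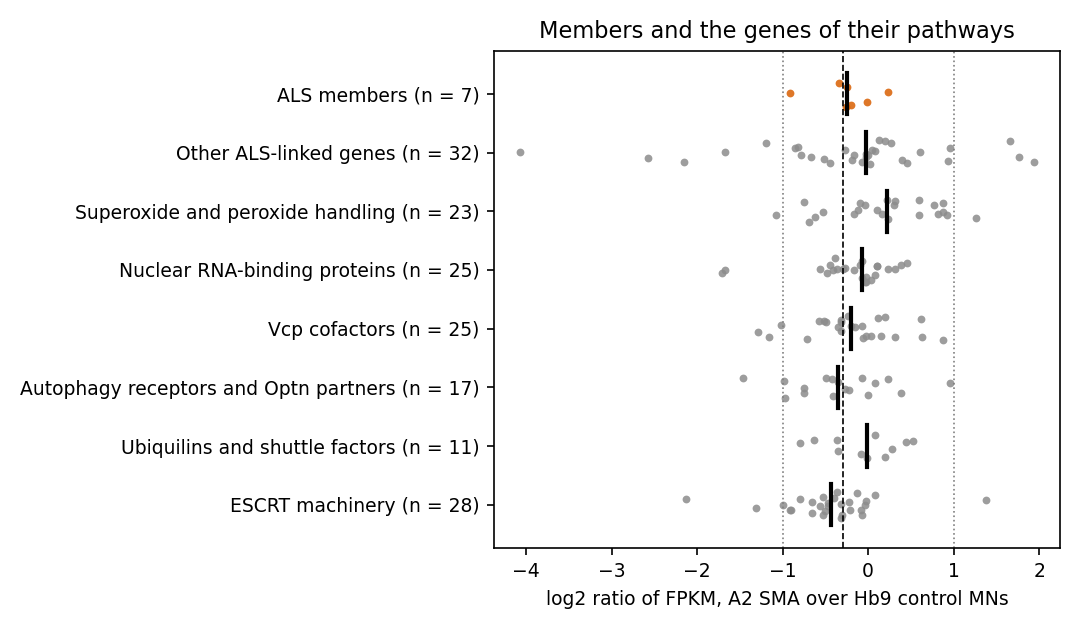
Log2 ratios of FPKM (A2 SMA over Hb9 control MNs) for the members (orange) and the genes of 7 lists (grey), 1 point per gene, with the list median as a black bar, the median of all genes dashed and 2-fold limits dotted. The members span -0.91 to 0.24, and the list medians run from -0.44 for the ESCRT machinery to 0.23 for superoxide and peroxide handling.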

How the data were processed

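RNA from 3 samples each of Hb9 control and A2 SMA MNs was sequenced. The authors used FastQC 0.10.1 and CutAdapt on the reads, TopHat for mapping to NCBI m37, and Cufflinks and Cuffdiff for quantification. The deposited table holds 1 FPKM value per genotype and a status word for each entry. Its fold changes, test statistics, p and q are the authors' own comparison and were not used. FAIL is Cuffdiff's mark for an entry on which its calculation failed.

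For each symbol the entry with the highest FPKM was taken, and entries shared by several symbols were counted once. Log2 ratios were formed without a pseudocount (Python 3.11.15, pandas 2.3.3, numpy 2.4.6, matplotlib 3.10.9). The table gives 1 value per genotype, so no test was run, and genes at least 2-fold different were counted. The counting was tested on simulated data. Locus starts were counted from 0 in the table and are given here counted from 1. Coding sequences, exon numbers and copies came from GENCODE M21 (GRCm38), with blastn for copies, and were joined by symbol. Strand use in counting is not given in the sources used here.

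Some items the rule names are not reported here. The named genes were the 7 members, the 2 highest, 2 lowest and 2 most abundant genes of each pathway or disease list, the 3 most abundant of each marker list, Smn1 and close paralogs. The lists came from general knowledge. The members and lists were chosen with earlier results of these data known. Lists overlap (Tia1, Sqstm1 and Prph, for example, are in more than 1).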

Additional observations from a re-analysis of the deposited data

How the results depend on the processing

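No paired analysis was possible because the table gives 1 value per genotype, and for the same reason no replicate could be left out. A value was counted as moved where the sign changed or the log2 ratio shifted by more than 1.5-fold, and 42 of 52 alternative values of the members did not move. Each member has 1 entry, so summing the entries of a symbol or leaving out shared entries could not change the ratio of a member that was kept. The unmoved values from those settings, which are among the 42, therefore say nothing about stability. Ubqln2 ranged from -0.91 to -0.62 and Sod1 from 0.23 to 0.53. Centring on the median gene and scaling to the upper quartile changed the sign of Tardbp (0.28 and 0.27), Vcp (0.040 and 0.038), the Matr3 entry (0.037 and 0.035), Chmp2b (0.091 and 0.089) and the members' median (0.040 and 0.038), because they add 0.29 to each log2 ratio. Scaling to Gusb, Pgk1 and Rpl13a changed that of Tardbp (0.13), as did summing with the pseudogene, an alternative chosen after seeing the data (0.012). No member passed 2-fold under any setting run, and 1 passed 1.5-fold. Of all genes, 3343 were 2-fold lower and 1020 higher. The lower count became 5051 without a filter and 5285 at 1.5-fold. The higher count became 639 with a pseudocount of 1 FPKM, 1558 when centred, 1551 with the upper quartile, 556 with a filter of 5 FPKM, 1733 without one and 1900 at 1.5-fold. Centring took the share of higher genes among those past 2-fold from 23.4% to 38.8%. For the other lists, 222 of 260 counts and 104 of 117 medians did not move.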
